A study of Mus musculus with 12 samples.

Results

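Crispld2, 7 genes known to respond to glucocorticoids (Fkbp5, Tsc22d3, Per1, Sgk1, Klf9, Zbtb16 and Dusp1) and the glucocorticoid receptor gene Nr3c1 were followed in cultured mouse neural stem cells (NSCs). These 9 genes are 9 of the 45792 genes in the deposited files, and all 9 were among the 15706 genes with counts high enough to be tested. Crispld2 was chosen by its rise after treatment with Igfbp2, where its fold change lay at percentile 99.97 of the tested genes, so its values are described without a test. The other 8 were chosen for what they are known to do. In Ncf1-/- NSCs given Igfbp2, 5 of these 8 rose, beside 14.2% of all tested genes called higher and 10.7% lower, and the other 3 were not called. The 5 became 2 on library totals without TMM factors, and 0 on log2(TPM + 1), on log2(TPM + 0.1) (on each, 1 higher and 1 lower at an unadjusted p under 0.05 by limma) or with Y-linked expression as a covariate in edgeR (0 at an unadjusted p under 0.05). The covariate fit called only 3 of all tested genes higher and 2 lower between the treatments. Its covariate separates the 2 Ncf1-/- groups and its slope rests on WT culture 12, so it cannot tell treatment from Y-linked expression. Between the genotypes the largest difference among the 8 was that of Sgk1, which was 8.48-fold lower in vehicle-treated Ncf1-/- NSCs. WT culture 12 stood above the other WT cultures in Crispld2, Klf9 and Per1, and had, like the Igfbp2-treated cultures, a low level of Y-linked genes.

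NSCs came from the forebrain of newborn C57BL/6J pups (WT) or of pups lacking Ncf1, a subunit of the NADPH oxidase Nox2, on the same background, and were used at the second passage. The 3 groups were 4 WT cultures (numbered 9 to 12), 4 Ncf1-/- cultures given vehicle (1 to 4, whose labels give no treatment) and 4 Ncf1-/- cultures given recombinant mouse Igfbp2 (5 to 8), a secreted protein that binds insulin-like growth factors. Igfbp2 was added 48 h after plating and RNA was taken 48 h later. The labels give a dose of 100 ng/ml and the study's methods a lower one. No WT culture with Igfbp2 was analysed here, so a difference between the treatments holds for Ncf1-/- NSCs. Cells of all 3 groups grew without serum in medium with EGF, FGF, insulin, transferrin, selenite and B-27, a supplement whose known formula contains corticosterone.

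Glucocorticoids enter the cell and bind the receptor Nr3c1, which is held in the cytoplasm by chaperones of the Hsp90 family. The bound receptor moves to the nucleus, attaches to response elements in DNA and raises or lowers the transcription of nearby genes. Fkbp5, a co-chaperone that lowers the receptor's affinity for hormone, Tsc22d3 (GILZ), the clock gene Per1, the kinase Sgk1, the transcription factors Klf9 and Zbtb16 and the phosphatase Dusp1 are among the genes it is best known to induce. Most of them also answer other signals: Per1 is driven by the circadian clock and by cAMP, Dusp1 and Per1 by growth factors, and Sgk1 by insulin and osmotic stress. Crispld2 encodes a secreted glycoprotein that has been described as glucocorticoid-induced in airway smooth muscle.

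The windows before the transcription starts of some of these genes are shown as a description, and whether the genes share a regulator was not tested. RefSeq entries of build GRCm38.p6 held 15 windows for 7 of the 9 genes. Zbtb16 and Nr3c1 had no entry. The 250 bases before each start were searched on both strands for ACANNNTGT (the core of a glucocorticoid response element), CACGTG (an E-box, the motif of clock and other basic helix-loop-helix factors) and TGACG (part of a cAMP response element). Matches may overlap, as 2 of those to TGACG in the Dusp1 window do. Capitals mark the matches, and stretches annotated as exons in any transcript were cut off. The E-box was in 1 window each of Crispld2, Fkbp5, Per1, Sgk1 and Dusp1, which is 5 of the 15 windows, and in 6.02% of all 32851 mouse windows. The first window is Crispld2 at chr8:119992188-119992437 (plus strand), followed by Per1 at chr11:69098699-69098947 (plus), Fkbp5 at chr17:28486150-28486399 (minus), Dusp1 at chr17:26508520-26508722 (minus), Klf9 at chr19:23140976-23141225 (plus) and the Sgk1 window at chr10:21993640-21993889 (plus), each read 5′ to 3′ along its gene.
Crispld2: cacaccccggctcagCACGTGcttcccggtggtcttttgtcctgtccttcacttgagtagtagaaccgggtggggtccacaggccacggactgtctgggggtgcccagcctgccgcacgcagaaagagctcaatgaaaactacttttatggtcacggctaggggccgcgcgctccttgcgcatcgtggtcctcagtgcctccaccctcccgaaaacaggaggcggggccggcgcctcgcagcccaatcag
Per1: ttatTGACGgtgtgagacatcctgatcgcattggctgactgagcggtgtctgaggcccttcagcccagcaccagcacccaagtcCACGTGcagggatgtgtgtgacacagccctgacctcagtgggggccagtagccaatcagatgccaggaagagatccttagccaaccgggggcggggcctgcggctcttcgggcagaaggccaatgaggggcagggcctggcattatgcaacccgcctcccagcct
Fkbp5: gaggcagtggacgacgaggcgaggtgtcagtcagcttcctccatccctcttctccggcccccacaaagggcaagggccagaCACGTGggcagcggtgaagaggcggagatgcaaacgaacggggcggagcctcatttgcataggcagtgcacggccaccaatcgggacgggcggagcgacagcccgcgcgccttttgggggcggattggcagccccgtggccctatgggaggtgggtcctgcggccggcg
Dusp1: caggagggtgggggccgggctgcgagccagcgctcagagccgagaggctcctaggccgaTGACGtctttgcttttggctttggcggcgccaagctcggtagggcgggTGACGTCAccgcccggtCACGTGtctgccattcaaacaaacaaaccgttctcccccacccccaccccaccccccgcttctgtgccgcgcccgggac
Klf9: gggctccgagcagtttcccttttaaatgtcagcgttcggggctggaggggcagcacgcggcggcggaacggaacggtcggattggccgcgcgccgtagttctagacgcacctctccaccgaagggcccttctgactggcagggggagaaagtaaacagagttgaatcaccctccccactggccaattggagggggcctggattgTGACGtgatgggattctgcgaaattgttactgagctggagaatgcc
Sgk1: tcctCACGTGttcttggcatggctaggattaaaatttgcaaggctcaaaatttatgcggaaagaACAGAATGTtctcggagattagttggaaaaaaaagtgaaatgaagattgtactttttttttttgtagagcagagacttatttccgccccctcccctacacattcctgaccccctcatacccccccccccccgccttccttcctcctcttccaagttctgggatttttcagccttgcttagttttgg

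In the Crispld2 window the E-box began 235 bases before the start, and neither other motif was found. The glucocorticoid response element core was in 2 of the 15 windows, both of Sgk1, and in 5.84% of all windows. TGACG was in 6 of the 15 windows, 3 times in that of Dusp1, and in 17.8% of all windows. These matches describe the letters of the windows and are not evidence that a factor bound there.

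Expected counts summed to between 18201622 and 34086554 per library. Ncf1 itself had 7 counts at most in any library (2 to 7 in WT), so it could not check the genotype labels. The NSC markers Nes, Sox2 and Vim were present in all 12 libraries, with Nes at 118 CPM or more. CPM are read counts scaled to library size, here with TMM factors. Of 10 listed NSC markers, 7 were called lower and 2 higher in vehicle-treated Ncf1-/- than in WT cultures, beside 28.2% and 28.9% of all genes. The Y-linked genes (Kdm5d, Uty, Ddx3y and Eif2s3y) summed to between 105 and 116 CPM in vehicle-treated Ncf1-/- cultures, 7.79 and 9.18 CPM in Igfbp2-treated ones, and 107 to 118 CPM in WT cultures 9 to 11 but 6.46 CPM in WT culture 12. The study states that vehicle-treated and Igfbp2-treated cultures were paired by animal, and cultures of 1 pup would share its sex chromosomes. Treatment and Y-linked expression cannot be told apart between the Ncf1-/- groups. A second sample sheet in the study's supplementary code lists WT culture 12 as treated with apocynin, an oxidase inhibitor, so results are also given without it. The p-values measure the spread between these cultures.

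**Figure D1:**
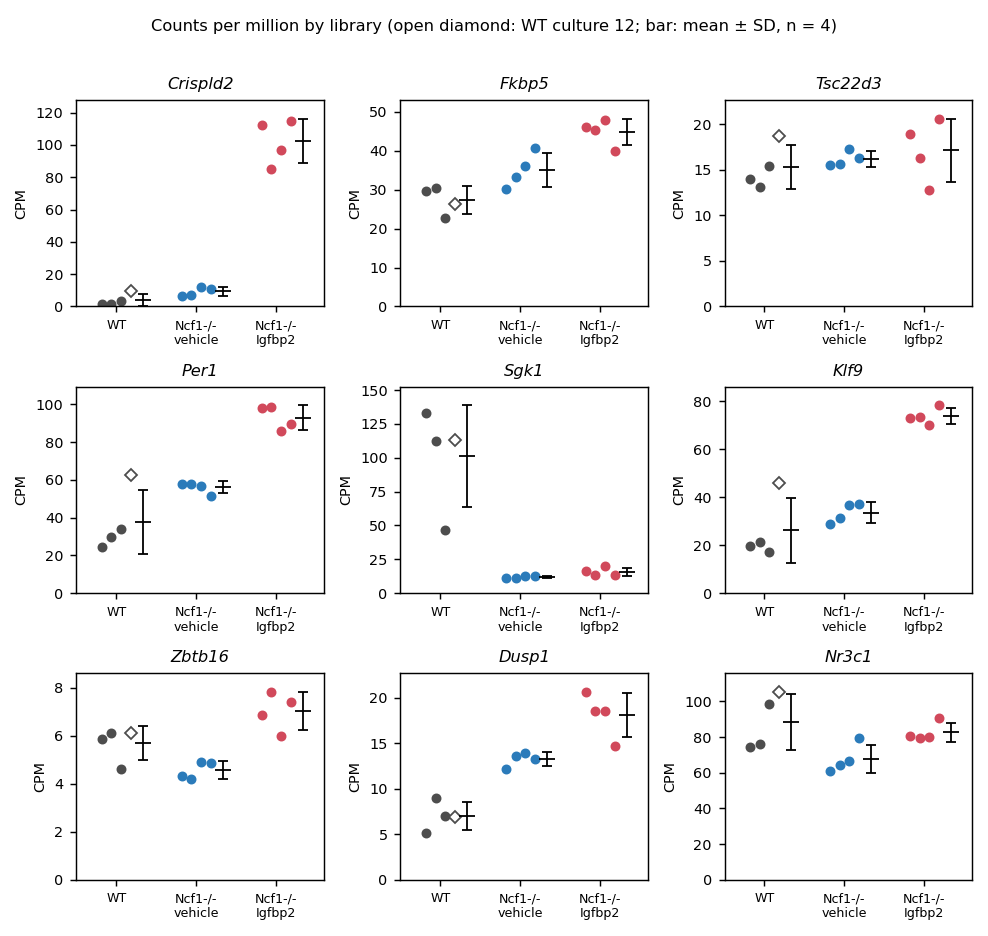
CPM (linear axes from 0) of the 9 genes in each library of the 3 groups, with points for libraries, an open diamond for WT culture 12 and bars for mean ± SD (n = 4). Crispld2, Per1 and Klf9 were highest in all 4 Igfbp2-treated cultures, Sgk1 was highest in all 4 WT cultures, and WT culture 12 stood above the other WT cultures in Crispld2, Per1 and Klf9.

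Crispld2 was low in WT NSCs, somewhat higher in vehicle-treated Ncf1-/- NSCs and high after Igfbp2. It measured 1.36, 1.40, 3.499 and 9.69 CPM in WT cultures 9 to 12. In vehicle-treated Ncf1-/- cultures 1 to 4 it measured 6.67, 7.35, 11.96 and 11.1 CPM. In Igfbp2-treated cultures 5 to 8 it measured 112, 85.3, 96.9 and 115 CPM. The treated cultures did not overlap with any other, while WT culture 12 lay inside the range of the vehicle-treated cultures. The means were 3.99 ± 3.93 CPM in WT, 9.28 ± 2.65 in vehicle-treated and 102 ± 13.8 in Igfbp2-treated cultures (SD, n = 4). Per transcript length, Crispld2 went from a mean of 0.815 ± 0.784 TPM (transcript abundance corrected for length) in WT to 1.97 ± 0.650 in vehicle-treated and 15.2 ± 1.72 in Igfbp2-treated cultures.

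The fitted log2 fold change of Crispld2 was 3.46 ± 0.44 (SE) between the treatments, an 11.002-fold rise, and the gene was chosen by this value. Against WT it was 1.25 ± 0.46 for vehicle-treated and 4.71 ± 0.48 for Igfbp2-treated Ncf1-/- cultures. Without WT culture 12 the difference of vehicle-treated cultures from WT was 2.04 ± 0.31, larger by over 1.5 times. The value between the treatments was 3.44 ± 0.14 with the stated animal pairs as a replicate block. It was 1.60 ± 0.51 with Y-linked expression as a covariate, a fit in which the covariate's slope rests on WT culture 12. The gene spans chr8:119992438-120052793 on the plus strand of GRCm38.

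Since Crispld2 is known from mesenchymal cells, markers of those cells are given beside it. Of 12 mesenchymal and mural cell markers 8 could be tested. With Igfbp2, 5 of these markers rose and none fell by edgeR, beside 14.2% and 10.7% of all genes. The counts were 5 and 0 at an unadjusted p under 0.05, and 4 and 0 by DESeq2. The summed level of the 12 markers was 14.03 to 25.8 CPM in WT, 15.8 to 19.1 in vehicle-treated and 38.3 to 50.004 CPM in Igfbp2-treated cultures. In the treated cultures it was below the level of Crispld2 alone. The smooth muscle genes Acta2 and Tagln made up most of it there, with means of 13.3 and 17.1 CPM. By mean, the largest part of the WT sum was the mural marker Pdgfrb. It averaged 13.5 CPM in WT, 0.315 CPM with vehicle and 1.31 CPM with Igfbp2. Against WT, 6 of the 8 tested markers were higher with vehicle and 1 lower, beside 28.9% and 28.2% of all genes. Among the fibroblast markers, the collagen genes Col1a1 and Col1a2 averaged 0.854 and 0.264 CPM in WT, 2.18 and 0.685 CPM with vehicle and 4.52 and 2.06 CPM with Igfbp2. Col3a1 averaged 0.122, 2.90 and 3.60 CPM in the same order. Dcn and Lum had at most 4 counts in any library, and Lum was at 0 in WT. The part of such cells in the Crispld2 result was not tested. In bulk RNA, more cells of a type and more RNA per cell cannot be told apart.

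By a fixed measure, the genes whose pattern over the 12 libraries was most like that of Crispld2 were Ier3, Gdf15, Scg2, Mrc2 and Ero1l. The measure was the root-mean-square difference of log2 CPM, each gene centred on its own mean, over 11171 genes averaging 5 CPM or more, and it was 0.67 for Ier3, 0.70 for Gdf15, 0.81 for Scg2, 0.87 for Mrc2 and 0.88 for Ero1l. Ier3 is an early response gene, Gdf15 a stress-induced cytokine, Scg2 a granin of secretory vesicles, Mrc2 a collagen receptor and Ero1l an oxidase of the endoplasmic reticulum. Ier3, for example, averaged 8.13 CPM in WT, 25.9 in vehicle-treated and 119 in Igfbp2-treated cultures. Ero1l measured 15.6 to 23.4 CPM in WT cultures 9 to 11, 116 CPM in WT culture 12, and averaged 253 CPM after Igfbp2. Of the glucocorticoid-responsive genes, Klf9 (1.55, rank 273) and Per1 (1.66, rank 426) came closest to Crispld2, and Sgk1 was farthest (3.30, rank 11022). The genes were ordered on the same libraries that set the pattern, and the order is a description.

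**Figure D2:**
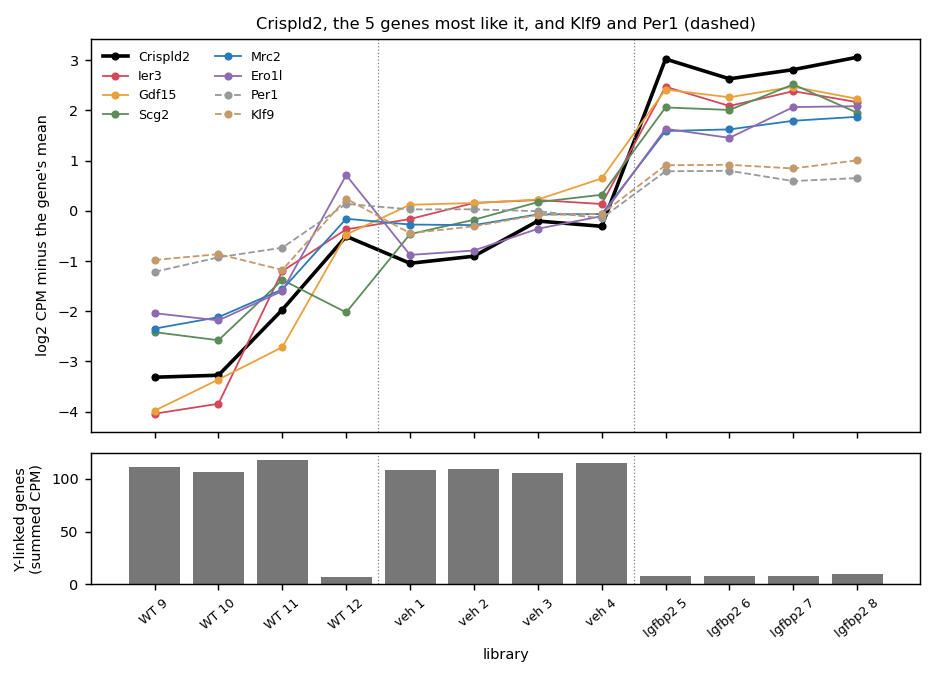
Upper panel, log2 CPM minus the gene's mean over 12 libraries for Crispld2 (thick), the 5 genes most like it and, dashed, Klf9 and Per1, and lower panel, summed CPM of 4 Y-linked genes, by library. WT culture 12, with 6.46 CPM of Y-linked genes, stood above WT cultures 9 to 11 in every line except that of Scg2.

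Between the treatments, 5 of the 8 genes other than Crispld2 passed the test (edgeR quasi-likelihood, Benjamini-Hochberg adjusted over all genes, adjusted p under 0.05), and all 5 rose. They were Klf9, Zbtb16, Per1, Dusp1 and Fkbp5. None of the 8 fell (none at an unadjusted p under 0.05, and none by DESeq2, which called the same number higher). Over all 15706 genes, 14.2% were called higher and 10.7% lower. The median log2 fold change of the 8 was 0.42, beside 0.04 over all genes. In 6 of the 8 the treated cultures lay wholly above the vehicle-treated ones, as in 19.3% of all genes.

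Klf9, a Krüppel-like transcription factor that restrains proliferation and is induced by glucocorticoid and thyroid hormone, changed most among the 8. It measured 28.6, 31.5, 36.8 and 37.3 CPM in vehicle-treated cultures and 73.2, 73.6, 70.0 and 78.3 CPM in Igfbp2-treated ones. The groups did not overlap. The log2 fold change was 1.14 ± 0.24 (adjusted p = 0.0064 by edgeR), a 2.20-fold rise. It stayed called when each library was left out in turn (1.07 to 1.21). With the Y-linked covariate it was 0.01 ± 0.18 (adjusted p = 0.995).

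Per1, a repressor arm of the circadian clock, measured 58.0, 58.1, 56.6 and 51.3 CPM with vehicle and 98.1, 98.8, 85.7 and 89.4 CPM with Igfbp2. Every treated culture was above every vehicle-treated one. The log2 fold change was 0.73 ± 0.22 (edgeR adjusted p = 0.0272), a 1.66-fold rise. Leaving out any 1 of cultures 1 to 8 took the call away (adjusted p 0.0537 to 0.0757), and leaving out WT culture 12 gave 0.69 ± 0.10 (adjusted p = 0.000532). With the Y-linked covariate, whose slope rests on that culture, the value was −0.24 ± 0.18.

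Zbtb16 (PLZF), a zinc finger repressor of progenitor cells, was the lowest of the 9 in all groups but WT when compared per length, at a mean of 0.693 ± 0.107 TPM with vehicle. It measured 4.31, 4.21, 4.90 and 4.85 CPM with vehicle and 6.87, 7.81, 5.98 and 7.41 CPM with Igfbp2, with 151 counts at most in the treated cultures. The log2 fold change was 0.62 ± 0.13 (edgeR adjusted p = 0.00668). It too stayed called without any 1 library (0.52 to 0.66).

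Dusp1, which dephosphorylates MAP kinases, measured 12.2, 13.6, 13.9 and 13.3 CPM with vehicle and 20.7, 18.6, 18.6 and 14.7 CPM with Igfbp2. The groups did not overlap, although treated culture 8 came close to the vehicle-treated ones. The log2 fold change was 0.45 ± 0.14 (edgeR adjusted p = 0.0376). Fkbp5 measured 30.3, 33.2, 36.2 and 40.6 CPM with vehicle and 46.1, 45.4, 47.9 and 39.97 CPM with Igfbp2, so the groups overlapped by culture 8. Its log2 fold change was 0.35 ± 0.11 (edgeR adjusted p = 0.0357). The calls of both were lost when single libraries were left out (Dusp1 without any 1 of cultures 1 to 7 or 12, adjusted p up to 0.129, and Fkbp5 without any 1 of cultures 1, 2, 3, 5, 6, 7, 8, 10 or 12, adjusted p up to 0.141).

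The receptor gene Nr3c1 measured 60.9, 64.6, 66.3 and 79.3 CPM with vehicle and 80.4, 79.7, 80.1 and 90.8 CPM with Igfbp2. All treated cultures were above all vehicle-treated ones, 3 of them only just above vehicle-treated culture 4. The log2 fold change was 0.29 ± 0.12 and was not called (edgeR adjusted p = 0.101). With the stated animal pairs as a replicate block it was 0.24 ± 0.06 and called (edgeR adjusted p = 0.0192). The Y-linked levels go against these pairs. Nr3c1 was called as well without culture 4 (0.39, edgeR adjusted p = 0.0381) and with the WT cultures left out of the fit (adjusted p = 0.045). Sgk1, a serine/threonine kinase that acts on ion transport, measured 11.4, 11.03, 12.5 and 12.7 CPM with vehicle and 16.1, 13.2, 19.7 and 13.3 CPM with Igfbp2. Its log2 fold change of 0.39 ± 0.26 was not called (edgeR adjusted p = 0.286), in a fit whose spread included that of the WT cultures, and was 0.32 ± 0.11 and called with the replicate block (adjusted p = 0.0475). It was also called without WT culture 11 (0.39, adjusted p = 0.0316) and with all WT cultures left out (adjusted p = 0.0492).

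Tsc22d3, the X-linked gene of GILZ, a widely used indicator of receptor activity, is the next member. It measured 15.5, 15.7, 17.4 and 16.3 CPM with vehicle and 18.9, 16.3, 12.8 and 20.6 CPM with Igfbp2. The groups overlapped throughout, and the log2 fold change was 0.08 ± 0.14 (edgeR adjusted p = 0.702). In WT it was 13.1 to 18.7 CPM, so no comparison called it.

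**Figure D3:**
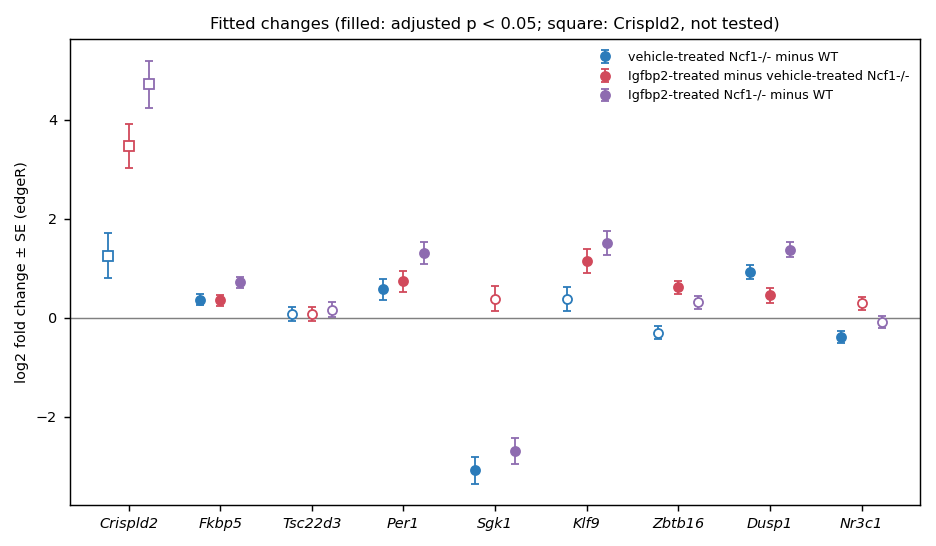
Fitted log2 fold change ± SE (edgeR, 12 libraries) of the 9 genes in 3 comparisons, filled where the adjusted p was under 0.05 and with squares for Crispld2, which was not tested. Between the treatments (red) 5 of 8 tested genes were called and positive, Klf9 at 1.14 and Zbtb16 at 0.62, and Sgk1 was negative in both comparisons with WT.

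The size of these changes depended on how the libraries were scaled. A few short RNAs (Rn7s1, Rn7s2, Rn7sk, Rpph1 and Rmrp) took 56.0 to 60.3% of the TPM with vehicle and 62.1 to 72.3% with Igfbp2. On library totals without TMM factors the median of all genes between the treatments was −0.23 instead of 0.04, with 648 genes called higher and 5258 lower instead of 2238 and 1685. There Klf9 and Zbtb16 alone of the 8 were called. On log2(TPM + 0.1) the median of all genes was −0.42, no member was called by limma (1 higher and 1 lower at an unadjusted p under 0.05), and the values of Fkbp5, Tsc22d3, Sgk1, Dusp1 and Nr3c1 were below 0. Relative to the median of all genes the 8 were above it in 8 of 8 cases with TMM factors (0.04 to 1.098), with library totals (0.04 to 1.095) and on log2(TPM + 0.1) (0.01 to 1.08), and in 7 of 8 on log2(TPM + 1). The changes given here are therefore relative to the other genes. The part of the short RNAs in this shift was not tested.

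**Figure D4:**
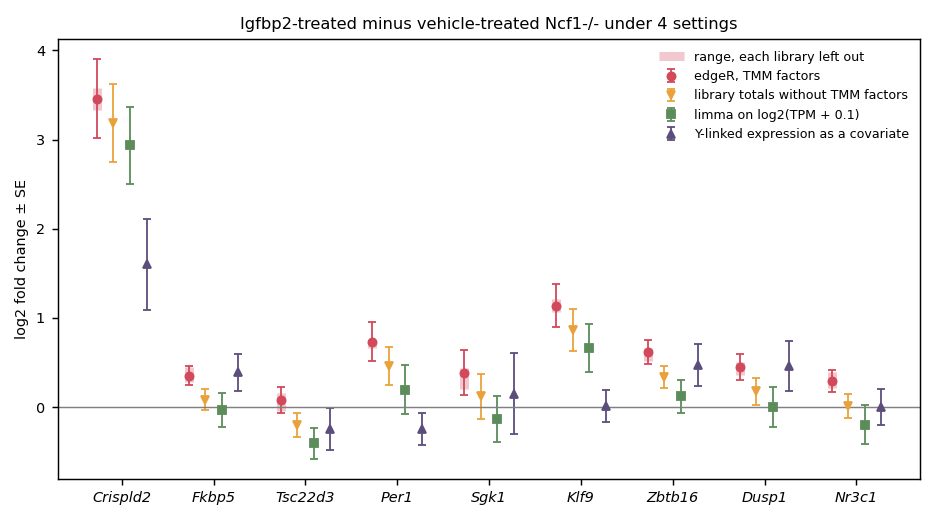
Log2 fold change ± SE of the 9 genes between Igfbp2-treated and vehicle-treated Ncf1-/- cultures under 4 settings, with a band for the range when each library was left out. Klf9 was 1.14 with TMM factors, 0.66 on log2(TPM + 0.1) and 0.01 with Y-linked expression as a covariate.

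Between vehicle-treated Ncf1-/- and WT NSCs, 5 of the 8 genes were called, 3 higher (Dusp1, Per1 and Fkbp5) and 2 lower (Sgk1 and Nr3c1). Over all genes 28.9% were called higher and 28.2% lower, so over 1 in 2 of all genes were called in this comparison. The largest difference among the 8 was that of Sgk1. In WT cultures 9 to 12 it measured 133, 112, 46.8 and 113 CPM, against 11.03 to 12.7 CPM in vehicle-treated cultures. All WT cultures were above all Ncf1-/- cultures, and WT culture 11 was the lowest of them. The log2 fold change was −3.08 ± 0.27 (edgeR adjusted p = 9.79e-07), that is 8.48-fold lower in Ncf1-/- NSCs, and it kept between −3.32 and −2.93 without any 1 library. Per length, Sgk1 went from the highest of the 9 genes in WT (41.9 ± 13.2 TPM) to 4.84 ± 0.490 TPM with vehicle.

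Sgk1 is known to be strong in oligodendrocytes, and most markers of that lineage moved with it. The 14 markers summed to 11775 CPM in WT culture 9, 12325 in culture 10, 3502 in culture 11 and 7454 in culture 12, and to between 2203 and 2371 CPM in all 8 Ncf1-/- cultures. Of the 14, 12 were lower and 2 higher in vehicle-treated Ncf1-/- than in WT cultures, beside 28.2% and 28.9% of all genes. The 2 higher were the lineage factors Olig1 (means of 796 CPM in WT and 1450 CPM with vehicle) and Olig2 (348 and 427 CPM). They made up most of the marker sum in vehicle-treated cultures. Mbp, the basic protein of myelin, measured 327 CPM in WT culture 11 and 1886 to 3885 CPM in the other WT cultures, but 2.37 to 3.40 CPM with vehicle. WT culture 11 was thus lowest among the WT cultures in Sgk1, Mbp and the summed markers. Astrocyte markers were also lower with vehicle (7 of 8 tested) and none higher (none at an unadjusted p under 0.05 or by DESeq2). Of 10 tested neuron markers 5 were lower and none higher (none at an unadjusted p under 0.05 or by DESeq2). Of 10 NSC markers 7 were lower and 2 higher. The part of any of these cell types in the Sgk1 difference was not tested. Sgk2, a paralog of Sgk1, was at 3 counts or fewer in each vehicle-treated library, at least 28.4-fold lower than its mean of 3.69 CPM in WT with the floor taken per library.

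**Figure D5:**
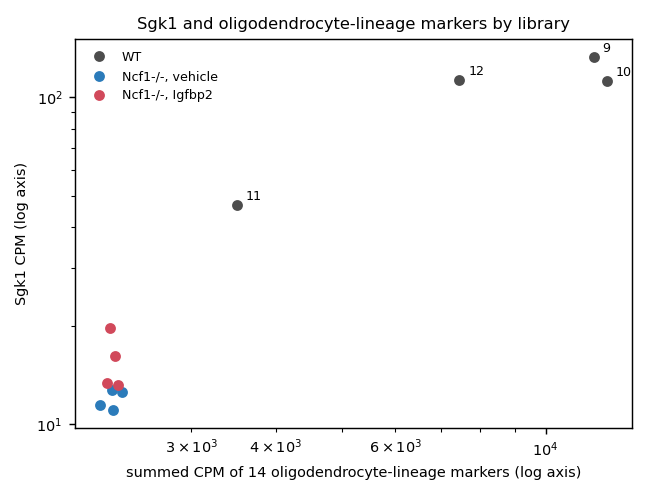
Sgk1 (CPM, log axis) against the summed CPM of 14 oligodendrocyte-lineage markers (log axis) in 12 libraries, with WT cultures numbered. The 8 Ncf1-/- cultures lay together at 19.7 CPM of Sgk1 or less, and WT culture 11, with 46.8 CPM of Sgk1 and 3502 CPM of markers, lay between them and the other WT cultures. The sum includes Olig1 and Olig2, whose means were higher in both Ncf1-/- groups than in WT.

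Dusp1 measured 5.18, 8.96, 7.03 and 6.85 CPM in WT, below all vehicle-treated cultures, with a log2 fold change of 0.92 ± 0.15 (edgeR adjusted p = 0.000152). Its groups did not overlap, nor did those of Sgk1, which is 1 of the 8 higher and 1 lower beside 26.1% of all genes higher and 25% lower without overlap. Per1 measured 24.5, 29.9, 34.2 and 62.6 CPM in WT, where culture 12 was above every vehicle-treated culture and the other 3 below. Its log2 fold change was 0.57 ± 0.22 (edgeR adjusted p = 0.0383) with all WT cultures and 0.89 ± 0.11 (adjusted p = 2.29e-05) without culture 12. Leaving out any 1 of cultures 1 to 7 or 9 to 11 ended the call (adjusted p 0.0537 to 0.114).

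Klf9 followed the same course, at 19.8, 21.4, 17.2 and 46.1 CPM in WT. With all WT cultures its log2 fold change was 0.37 ± 0.24 and was not called (edgeR adjusted p = 0.213). Without culture 12 it was 0.75 ± 0.11 and called (adjusted p = 0.000123), so this culture decided the call. Fkbp5 measured 29.7, 30.4, 22.6 and 26.4 CPM in WT, and its difference of 0.36 ± 0.11 (edgeR adjusted p = 0.0135) fell to 0.31 ± 0.13 (adjusted p = 0.0543) without culture 12. Without culture 3 or culture 4 it was also no longer called (adjusted p = 0.0541 and 0.0772).

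The receptor gene was lower in vehicle-treated Ncf1-/- NSCs. Nr3c1 measured 74.2, 75.9, 98.3 and 105 CPM in WT, with a log2 fold change of −0.38 ± 0.12 (edgeR adjusted p = 0.0164), and the groups overlapped in vehicle-treated culture 4. The call was lost without that group's culture 1 (adjusted p = 0.0535). Zbtb16 measured 5.87, 6.10, 4.62 and 6.12 CPM in WT and was not called (log2 fold change −0.31 ± 0.13, edgeR adjusted p = 0.0656). Without WT culture 11 the same gene was called (adjusted p = 0.0158), as it was without culture 7 (adjusted p = 0.0471).

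Compared with WT, Igfbp2-treated Ncf1-/- NSCs differed in 5 of the 8, with Fkbp5, Per1, Klf9 and Dusp1 higher and Sgk1 lower, beside 31.6% of all genes called higher and 30.8% lower. The 3 comparisons share samples and are not independent. The log2 fold changes were 1.505 ± 0.25 for Klf9 (edgeR adjusted p = 0.000165), 1.37 ± 0.15 for Dusp1 (adjusted p = 5.74e-06), 1.30 ± 0.22 for Per1 (adjusted p = 0.000204) and 0.72 ± 0.11 for Fkbp5 (adjusted p = 0.000114). Sgk1 stayed low at −2.70 ± 0.26 (edgeR adjusted p = 2.28e-06). The value of Nr3c1 was −0.10 ± 0.12 (edgeR adjusted p = 0.513), with treated cultures inside the WT range. Per1 and Klf9 were called in this comparison also with the Y-linked covariate, at 0.67 ± 0.16 (edgeR adjusted p = 0.00471) and 0.79 ± 0.15 (adjusted p = 0.00163).

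WT culture 12 was the highest WT culture in 6 of the 9 genes and the lowest in none, beside 24.9% and 25.5% of all genes. It exceeded the mean of the other 3 WT cultures 4.64-fold in Crispld2, 2.37-fold in Klf9 and 2.12-fold in Per1. Sgk1, Fkbp5 and Dusp1 lay within the range of the other WT cultures.

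The wider glucocorticoid pathway was followed with lists. Of 25 other glucocorticoid-induced genes tested, 10 rose and 1 fell between the treatments (11 and 1 without WT culture 12). Over all genes, 2141 were called higher and 2088 lower without that culture. With all libraries, 14.2% of all genes were called higher and 10.7% lower. The list's median log2 fold change was 0.44 beside 0.04 over all genes. Cebpb, a bZIP transcription factor, rose from 7.598 ± 2.19 CPM with vehicle to 34.2 ± 5.86 CPM with Igfbp2 (SD), and its log2 fold change was 2.17 ± 0.44 (edgeR adjusted p = 0.00471). Angptl4, an inhibitor of lipoprotein lipase, rose by 1.65 ± 0.28 (adjusted p = 0.00204) and the cell cycle inhibitor Cdkn1a by 1.06 ± 0.21 (adjusted p = 0.00477). The stress-activated kinase gene Map3k6 rose by 1.05 ± 0.34 (adjusted p = 0.0395). Nedd9, a scaffold of focal adhesions, was the gene that fell (−0.49 ± 0.14, edgeR adjusted p = 0.022), and the metallothionein genes Mt1 and Mt2, well-known targets, were at 0.04 ± 0.22 and −0.10 ± 0.21 and not called. Nedd9, Mt1 and Mt2 were picked after their values were seen.

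Against WT, vehicle-treated Ncf1-/- cultures had 7 of these 25 genes higher and 3 lower, with a median of −0.03. Gpd1, glycerol-3-phosphate dehydrogenase, was at 51.7 ± 12.1 CPM in WT and 353 ± 23.6 CPM with vehicle (log2 fold change 2.77 ± 0.16, edgeR adjusted p = 6.4e-08). The cell cycle inhibitor Cdkn1c was lower with vehicle (−2.89 ± 0.30, adjusted p = 4.03e-06), as was Angptl4 (−2.14 ± 0.27, adjusted p = 2.09e-05). Beside the 28.9% higher and 28.2% lower over all genes, the share higher was no larger than the background and the share lower was below it.

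Receptor partners and cofactors included 18 tested genes. Of these, among them Nr3c1 and Fkbp5, 8 rose between the treatments and none fell (none at an unadjusted p under 0.05 or by DESeq2), and 5 rose without WT culture 12. The median was 0.26 beside 0.04 over all genes, of which 14.2% were called higher and 10.7% lower. The coactivator Ncoa1 rose by 0.54 ± 0.12 on the log2 scale (edgeR adjusted p = 0.00773) and the acetyltransferases Ep300 and Crebbp by 0.47 ± 0.12 and 0.46 ± 0.13 (adjusted p = 0.0142 and 0.0239). With vehicle, 10 of the 18 were lower than in WT and 6 higher, beside 28.2% and 28.9% of all genes. Crebbp was at −1.10 ± 0.13 (edgeR adjusted p = 1.49e-05) and Ep300 at −1.02 ± 0.12 (adjusted p = 1.19e-05). On library totals, 1 of the 18 rose and 1 fell between the treatments, beside 648 called higher and 5258 lower over all genes. Without WT culture 12 the calls over all genes were 2141 higher and 2088 lower.

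Genes that glucocorticoids repress were mostly too low to test, with 6 of 14 tested. Of the 6, 3 rose between the treatments and none fell (none at an unadjusted p under 0.05 or by DESeq2), beside 14.2% and 10.7% of all genes. The 3 were chemokines. Cxcl1 rose from 2.30 ± 0.256 to 7.67 ± 2.05 CPM (log2 fold change 1.73 ± 0.26, edgeR adjusted p = 0.00107), Ccl2 from 2.88 ± 0.420 to 6.34 ± 0.401 CPM (adjusted p = 0.00669) and Cxcl10 from 3.41 ± 0.226 to 7.18 ± 1.37 CPM (adjusted p = 0.0359). In WT, Cxcl1 was at 3 counts or fewer in each library, so vehicle-treated cultures were at least 16.7-fold higher. Of the 6, 4 were higher with vehicle than in WT and 2 lower, beside 28.9% and 28.2% of all genes, with a median log2 fold change of 2.61. Ptgs2, the inducible cyclooxygenase, was among the lower ones (−3.69 ± 0.22, edgeR adjusted p = 7.27e-08). The lists of induced and of repressed genes both had members that rose with Igfbp2, and the cause was not tested.

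Per1 also belongs to the circadian clock, of which 19 genes were tested. With Igfbp2, 6 rose and none fell (none at an unadjusted p under 0.05 or by DESeq2), and 11 rose without WT culture 12. Over all genes, 2141 were called higher and 2088 lower without that culture. With all libraries, 14.2% of all genes were called higher and 10.7% lower. Dbp, a clock output factor, rose from 12.5 ± 1.69 to 35.6 ± 5.23 CPM (log2 fold change 1.504 ± 0.27, edgeR adjusted p = 0.00292), Rora by 0.95 ± 0.24 (adjusted p = 0.0154) and Per3 by 0.80 ± 0.20 (adjusted p = 0.0143). The core activators Clock and Arntl (Bmal1), picked after their values were seen, were at −0.10 ± 0.10 and −0.05 ± 0.10 and not called. Relative to WT, vehicle-treated cultures had 3 of the 19 higher and 6 lower, beside 28.9% and 28.2% of all genes. Among them were Hlf at 1.27 ± 0.19 (edgeR adjusted p = 0.000101) and Nfil3 at −1.56 ± 0.27 (adjusted p = 0.000262). Dbp was 30.3 CPM in WT culture 12 and at most 22.3 CPM in the other WT cultures.

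Immediate early genes, which growth factor signals induce within minutes, include targets of the MAP kinases that Dusp1 acts on. Of 21 tested, 11 rose between the treatments and none fell (none at an unadjusted p under 0.05 or by DESeq2). The list's median was 0.83 beside 0.04 over all genes, of which 14.2% were called higher and 10.7% lower. Egr1 rose from 25.4 ± 6.29 to 228 ± 50.3 CPM (log2 fold change 3.17 ± 0.35, edgeR adjusted p = 0.000397), Fosb by 2.997 ± 0.53 (adjusted p = 0.00272), Ier3 by 2.19 ± 0.53 (adjusted p = 0.0114) and Arc by 1.71 ± 0.52 (adjusted p = 0.0308). On library totals 9 rose and none fell, beside 648 called higher and 5258 lower over all genes. In vehicle-treated cultures 6 of the 21 were higher and 5 lower than in WT, beside 28.9% and 28.2% of all genes. WT culture 12 had 41.8 CPM of Egr1, within the range of the other WT cultures.

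Paralogs showed which relatives of the 9 genes moved. Of 20 tested, 7 rose with Igfbp2 and none fell (none at an unadjusted p under 0.05 or by DESeq2). Their median was 0.21 beside 0.04 over all genes, of which 14.2% were called higher and 10.7% lower. The MAP kinase phosphatases Dusp6 and Dusp4 rose by 1.32 ± 0.22 (edgeR adjusted p = 0.00204) and 0.71 ± 0.18 (adjusted p = 0.0136), Klf10 by 0.97 ± 0.22 (adjusted p = 0.00779) and Per3 as given with the clock genes. Glipr2, which like Crispld2 belongs to the CAP protein superfamily, was at 17.8 ± 9.93 CPM in WT and 96.0 ± 2.92 CPM with vehicle (log2 fold change 2.42 ± 0.29, edgeR adjusted p = 1.44e-05).

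For these lists too, scaling and the Y-linked genes changed the counts between the treatments. On library totals, where the median of all genes was −0.23, 3 of the 25 other induced genes rose and 2 fell, 2 of the 19 clock genes rose and 2 fell, 2 of the 20 paralogs rose and 1 fell, and 2 of the 6 repressed genes rose and none fell. Over all genes 648 were called higher and 5258 lower on library totals. With Y-linked expression as a covariate no gene of any of the 6 lists was called, in a fit that called 5 of all 15706 genes. The lists share members with one another and with the 8 genes, so their counts are not independent.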

How the data were processed

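RNA from 12 NSC cultures, 4 per group, had been depleted of ribosomal RNA and sequenced. Per the labels and the submitters' processing notes, reads were aligned with Bowtie2 to GRCm38 and quantified with RSEM. The authors deposited, for each library, expected counts, TPM and FPKM per gene, and 1 merged table. The deposited expected counts are estimates, of which 15.9% were not whole, and were rounded here. The TPM deposited by the authors are scaled to 1 fixed total per library and served for levels per length and for alternatives. The deposited FPKM were not used. The merged table's 12 columns, deposited under a TPM heading and treated as a score, were not used for values. Expected count sums of 18201622 to 34086554 limit precision at low levels.

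Genes were filtered with filterByExpr, leaving 15706, which held 99.9% of counts. Libraries were scaled with TMM factors, all 12 were fitted together with edgeR 4.0.16 (R 4.3.3) and its quasi-likelihood test, and p-values were adjusted with Benjamini-Hochberg over all genes (called under 0.05). DESeq2 1.42.0, limma 3.58.1 on log2(TPM + 1) and log2(TPM + 0.1), the test the study describes, library totals, other filters, 2 groups at a time, Y-linked expression as a covariate and leaving out each library were alternatives. The scripts were tested on simulated data. The members, gene lists and tests were chosen with earlier results of these data known. From each list at most 4 called genes per comparison are named, those with the largest change and a mean of at least 1 CPM, besides 5 genes most like Crispld2.

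The study's methods pair vehicle-treated and Igfbp2-treated cultures by animal, so a fit with the pair as a replicate block was made. Deviations from the group means correlated between −0.25 and 0.20 in the 4 stated pairs and between −0.49 and 0.49 in the 12 other combinations. The Y-linked levels go against pairs from the same animal. No libraries were counted as duplicates.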

Additional observations from a re-analysis of the deposited data

Results flagged for a closer look

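In 3 of the 27 groups of 4 libraries examined (9 genes in 3 groups), 1 library stood apart from the other 3 by more than Dixon's critical value. Chance alone marks about 1 in 20 groups. Klf9 was 46.1 CPM in WT culture 12, and the nearest WT culture had 21.4 CPM. Zbtb16 was 4.62 CPM in WT culture 11, below 5.87 CPM in the nearest. Nr3c1 was 90.8 CPM in Igfbp2-treated culture 8, above 80.4 CPM in the nearest.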

How the results depend on the processing

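Of the values obtained for single genes under the alternatives, 457 kept their direction and side of the threshold (or, for Crispld2, stayed within the spread), 77 lost and 12 gained the call, 4 moved and 26 changed sign. Sgk1 stayed lower and called in both comparisons with WT under every alternative. Between vehicle-treated Ncf1-/- and WT cultures, 5 of 8 genes were called, and 3 with only the 2 groups fitted, 2 on log2(TPM + 1), 3 on log2(TPM + 0.1), 1 with the test the study describes and 3 to 5 with each library left out. Between the treatments, 5 were called, and 2 on library totals, 3 with a mean of at least 5 CPM, 2 to 6 with each library left out, and 0 on both TPM scales (1 higher and 1 lower at an unadjusted p under 0.05 on each), with the study's test and with the Y-linked covariate (0 at an unadjusted p under 0.05 for both). Between Igfbp2-treated and WT cultures 5 were called, and 2 with the study's test. The cause was not tested.

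With the stated pairs as a replicate block, 7 of 8 genes were called between the treatments, Sgk1 (0.32, adjusted p = 0.0475 by edgeR) and Nr3c1 (0.24, adjusted p = 0.0192) in addition, and no other call changed. Over all genes, calls in that comparison were 2874 higher and 2560 lower with the block, a fit without the WT cultures, which have no pair. They were 2950 and 2759 with the 2 Ncf1-/- groups alone and no block, and 2238 and 1685 with all 12 libraries. Sgk1 and Nr3c1 were also called with the WT cultures left out and no block.

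Changes of sign between the treatments were as follows. On log2(TPM + 1), log2(TPM + 0.1) and with the study's test, Fkbp5 was at −0.029, −0.032 and −0.027, Tsc22d3 at −0.36, −0.41 and −0.42, Sgk1 at −0.11, −0.14 and −0.086, and Nr3c1 at −0.18, −0.20 and −0.20. Dusp1 was at −0.001 and −0.0051 on the 2 TPM scales. Tsc22d3 was also at −0.20 on library totals, −0.25 with the Y-linked covariate and −0.05 without culture 8 (−0.05 to 0.157 over the 12 libraries left out), and Per1 was at −0.24 with the covariate. Between Igfbp2-treated and WT cultures, Tsc22d3 was at −0.25, −0.29 and −0.32 and Zbtb16 at −0.054, −0.11 and −0.12 in the same 3 settings, and Tsc22d3 at −0.070 with the covariate. Between vehicle-treated and WT cultures, Tsc22d3 was at −0.0063 without culture 10 (−0.0063 to 0.157 over the 12).

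Over all genes, called counts that differed from the main fit by over 1.5 times were, with the study's test, 4328 between vehicle-treated and WT, 2148 between the treatments and 5592 between Igfbp2-treated and WT cultures, beside 8978, 3923 and 9801. Between the treatments they were also 5906 on library totals, 6354 and 6519 on log2(TPM + 1) and log2(TPM + 0.1), 5 with the Y-linked covariate, and 2320, 2294 and 2550 without culture 1, 2 or 6.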
